A study of Mus musculus with 12 samples.

Results

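Robo receptors, their Slit ligands and the srGAP proteins that carry the Robo signal were followed in mouse cortical neurons that expressed a huntingtin fragment with a long or a short glutamine repeat. The 9 genes are Robo1, Robo2 and Robo3, Slit1, Slit2 and Slit3, and Srgap1, Srgap2 and Srgap3, out of 41388 genes in the deposited tables. They were taken by symbol, and the family was selected on the measured level of Robo3, which stood far lower in neurons with the long repeat. The values of Robo3 in comparisons with that group are therefore a description and carry no test. The other 8 genes come from the same comparisons and were picked with earlier results known, so their tests are not independent evidence for the family. With the long repeat Robo3 stood 7.58-fold and Slit3 4.68-fold below control vector, and Robo2 was at about 0.505 of its control level. The Robo1, Slit1, Slit2 and Srgap3 ranges overlapped those of the control libraries. Differences between genes were tested only as ratios within a family, and none passed correction.

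Slits are large secreted proteins that bind Robo receptors on growing axons and dendrites and usually repel them. Robo1 and Robo2 are the main Slit receptors of cortical axons, while mammalian Robo3 binds Slits poorly, binds NELL2, and is known for allowing commissural axons to cross the midline. The srGAPs bind the Robo tail and switch off small GTPases, and they also bend membranes during neurite growth and neuron migration. Slit2 and Slit3 each carry a hairpin of the microRNA miR-218 in an intron, and Robo1 is a known target of that microRNA.

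Primary cortical neurons from Swiss Webster embryos of embryonic day 16 received lentivirus at day 5 in vitro, and RNA was taken at day 10 and depleted of ribosomal RNA before sequencing. A control vector, huntingtin exon 1 with 25 glutamines (Htt-25Q) and exon 1 with 72 glutamines (Htt-72Q) made 3 groups of 4 libraries, all of the same strain and all infected. Exon 1 alone was expressed, and neither the species of the construct nor the promoter of the vector is given in the sources used here. The infection label of control vector 2 names a control vector where those of the other control libraries name an empty one, and it was placed by its title. Each description opens with a number, called preparation here (22, 24, 26, 27 or 27_1), whose meaning is not stated. Nothing states that libraries of a group came from separate litters, so p-values measure the spread between these libraries only, which may be technical. Total counts per library ran from 12668531 to 23357966 under control vector, 18097932 to 27471442 under Htt-25Q and 12439335 to 20040985 under Htt-72Q.

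The promoters of the Robo genes are shown first, because Robo2 and Robo3 were lower with the long repeat and Robo1 was not called. Promoter windows of 250 bases before and 50 after the start were matched by symbol for 8 of the 9 genes in the RefSeq table (GRCm38.p6). For the Robo genes only the bases that precede every annotated exon are printed, in the direction of the gene. They lie at chr16:72662899-72663148 (plus strand) for Robo1, chr16:74411826-74412075 (minus strand) for Robo2 and chr9:37433247-37433425 (minus strand) for Robo3. Capitals mark TAATTA, a core that homeodomain factors recognise, LIM-homeodomain factors such as Lhx2 among them, and GGGCGG, the GC box of Sp1.
Robo1 promoter: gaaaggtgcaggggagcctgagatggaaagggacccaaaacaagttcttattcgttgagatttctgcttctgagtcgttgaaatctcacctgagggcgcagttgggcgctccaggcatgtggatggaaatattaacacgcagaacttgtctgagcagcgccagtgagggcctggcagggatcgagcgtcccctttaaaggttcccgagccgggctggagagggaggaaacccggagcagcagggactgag
Robo2 promoter: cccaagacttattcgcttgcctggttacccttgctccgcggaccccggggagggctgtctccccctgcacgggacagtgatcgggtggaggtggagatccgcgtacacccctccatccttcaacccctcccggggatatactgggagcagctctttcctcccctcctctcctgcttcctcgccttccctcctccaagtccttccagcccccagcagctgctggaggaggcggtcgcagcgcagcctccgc
Robo3 promoter: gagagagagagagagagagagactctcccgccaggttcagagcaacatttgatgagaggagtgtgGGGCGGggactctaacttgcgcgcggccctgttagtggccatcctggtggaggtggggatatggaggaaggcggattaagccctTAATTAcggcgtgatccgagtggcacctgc

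The whole windows were searched on both strands for 6 motifs, which were chosen after the Robo3 window had been seen. Among them were the homeodomain core TAATTA and the promoter element known as the TATA box, with the letters TATAAA. A loose form of the MEF2 element, which allows any base at its 4 middle positions, was also sought. The others were the cyclic AMP response element TGACGTCA, the Sp1 element GGGCGG, and the E-box with the letters CACGTG. Robo1 and Robo2 held none of the 6. Robo3 held 1 TAATTA, which lies 101 bases before the RefSeq start, and 3 GGGCGG, 1 of them in the printed bases, with no overlap between printed motifs. TAATTA was found in 5.291% of all 32851 windows of 300 bases and in no other window of the family. GGGCGG was found in 35.658% of windows, and Slit2, Slit3, Srgap1, Srgap2 and Srgap3 held it 3, 6, 3, 2 and 1 times. TATAAA, at 13.616% of windows, was in Slit2 and Srgap3, and the loose MEF2 form, at 3.686%, was in Srgap3. No family window held TGACGTCA (1.79% of windows) or CACGTG (7.15%). These are matches of letters, and whether a factor binds them was not tested.

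The other sequences that tie receptors to ligands are miR-218 and its matches. The mature sequence comes from RefSeq and its seed, bases 2 to 8, is in capitals; the lines for Robo genes are 21-base stretches of the longest GENCODE M21 3′ UTR of each gene, with the letters complementary to the seed in capitals.
mmu-miR-218-5p: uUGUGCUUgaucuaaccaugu
Robo1 site: ggttttaaAAGCACAatcact
Robo2 first site: ttggtgatAAGCACAaatctc
Robo2 second site: gcagacccAAGCACAgcttct
Robo3 site: actcactgAAGCACActgtct

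On GRCm38 these sites lie at chr16:73045340-73045360 (plus strand) for Robo1, chr16:73895353-73895373 and chr16:73893027-73893047 (minus strand) for Robo2, and chr9:37416239-37416259 (minus strand) for Robo3. The match was sought in the family after its values were seen. It occurs at least once in the 3′ UTR of 13.707% of 20968 genes, and of the family in Robo1 (1 match), Robo2 (2), Robo3 (1), Slit2 (2), Srgap2 (1) and Srgap3 (1). The UTRs differ in length, from 343 bases in Robo3 to 4817 in Srgap3, so these counts cannot be ranked. Both hairpins are intronic and on the strand of their host: Mir218-1 lies at chr5:48223942-48224051 in Slit2 and Mir218-2 at chr11:35616816-35616925 in Slit3. Each hairpin gene had 0 counts in all 12 libraries, which says nothing about the mature microRNA, a quantity not measured here.

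Levels between genes can be compared only per length. In RPKM from TMM-scaled counts (counts per kilobase of exon relative to a library size adjusted by the TMM factors), the control neurons had most Srgap3 (21.3 ± 14.1, SD, n = 4), then Robo2 (14.7 ± 3.78), Slit1 (13.6 ± 3.06), Srgap2 (10.4 ± 3.78), Robo1 (5.97 ± 1.62), Slit3 (5.52 ± 1.94), Srgap1 (4.25 ± 3.53), Slit2 (1.19 ± 0.391) and Robo3 (0.886 ± 0.180). Of neighbours in this order, Srgap1 and Slit2 alone had ranges that did not overlap. Robo3 had the lowest level of the 3 receptors. In Htt-72Q the order was Srgap3 (14.1 ± 1.37), Slit1 (12.4 ± 2.07), Robo2 (7.40 ± 1.37), Srgap2 (5.94 ± 0.646), Robo1 (5.19 ± 1.04), Srgap1 (1.55 ± 0.288), Slit3 (1.17 ± 0.490), Slit2 (0.747 ± 0.154) and Robo3 (0.115 ± 0.0512). There, Slit1 and Robo2, Robo1 and Srgap1, and Slit2 and Robo3 were neighbours without overlap, and Slit3 had moved next to the low-level Slit2. In Htt-25Q the order was that of control vector except that Robo3 (1.07 ± 0.257) stood before Slit2 (0.959 ± 0.103), with overlapping ranges.

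**Figure D1:**
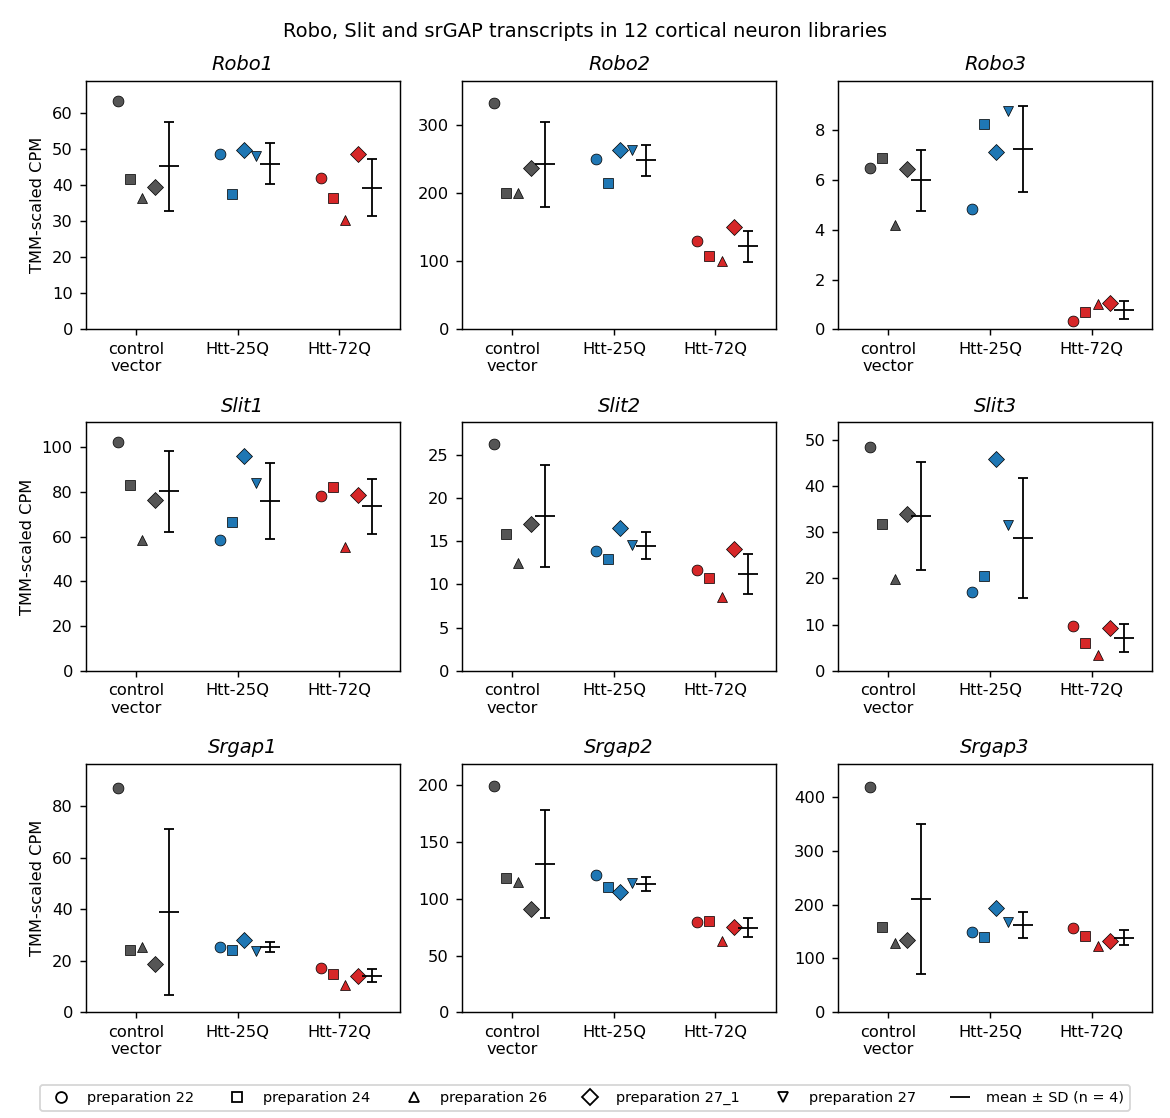
Level of each gene in TMM-scaled CPM (counts relative to the TMM-adjusted library size, on linear axes that start at 0) in the 12 libraries, by group. Symbols give the preparation number, and bars give the mean and SD of 4 libraries. Robo3, Robo2, Slit3, Srgap1 and Srgap2 lie lower in all 4 Htt-72Q libraries than in the other 8. Control vector 1 lies far above the other libraries for Srgap1 and Srgap3.

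The study's design asks what each construct does relative to virus alone and what the length of the repeat does when both groups received exon 1. Both comparisons of Htt-72Q share the Htt-72Q libraries, and both comparisons against control vector share the controls, so they are given side by side and not counted as repeats of each other. Changes are log2 fold changes of an edgeR fit over all 12 libraries with their SE, and a gene is called where its Benjamini-Hochberg adjusted p over the 14707 tested genes is under 0.05. All 9 genes passed the filter on low counts. Mouse Htt read 143 ± 63.8 CPM under control vector, 148 ± 27.0 under Htt-25Q and 169 ± 36.0 under Htt-72Q, and its level checks the constructs only if their reads align to the mouse gene. Over all genes 1389 were called higher and 2022 lower against control vector, and 1931 and 1702 when libraries were scaled to their totals, which shifts the median change over all genes from 0.03 to 0.11.

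Against control vector, 5 of the 8 genes other than Robo3 were lower in Htt-72Q, namely Robo2, Slit2, Slit3, Srgap1 and Srgap2, and none was higher. Over all tested genes 13.7% were called lower and 9.44% higher in this comparison, and since the comparison chose the family nothing is read from the difference. Against Htt-25Q, 3 of the same 8 were lower, Robo2, Slit3 and Srgap2, and none was higher, where 13.4% of all tested genes were called lower and 9.07% higher. The median change over 3 genes each was -0.67 for the Slits and -0.81 for the srGAPs against control vector. It was -0.36 and -0.60 against Htt-25Q, beside 0.03 over all tested genes in both comparisons. Each such median is only the value of the middle gene, Slit2 for the Slits and Srgap2 for the srGAPs. Control vector 1, the library that stands apart in the srGAPs, was also the highest control library for Robo1, Robo2 and the Slits. Without it, 4 of 8 were called in each comparison. Over all genes that setting called 3181 of 14852 against control vector and 3902 of 14852 against Htt-25Q. The fit of all libraries called 3411 and 3308 of 14707. These are bulk cultures, where fewer cells that make a transcript cannot be told apart from less transcript per cell.

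**Figure D2:**
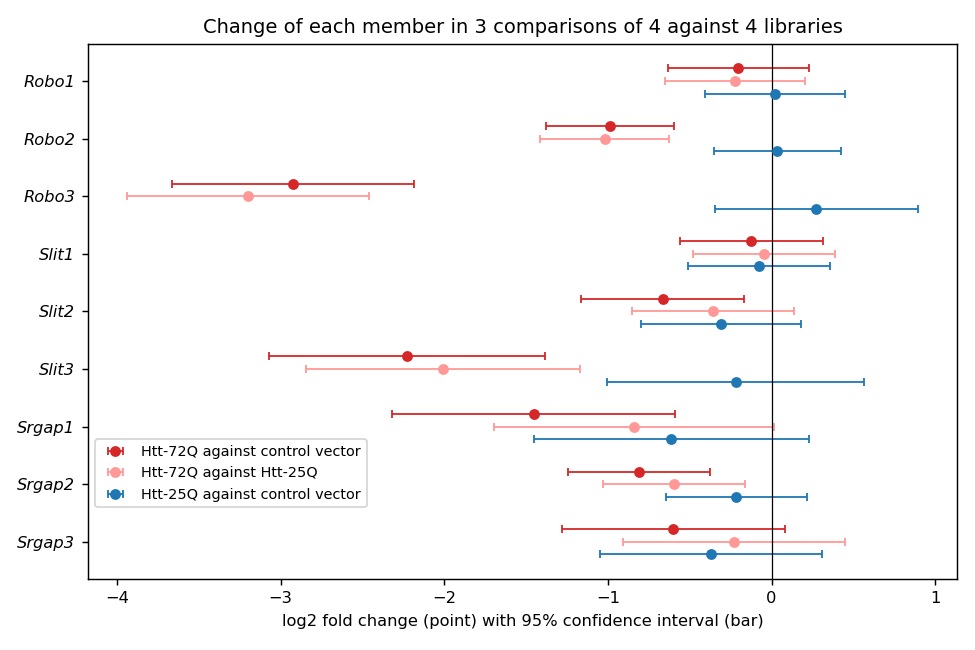
Log2 fold change of each gene (point) with its 95% confidence interval (bar) in the 3 comparisons of 4 against 4 libraries. The intervals of Robo2, Slit3 and Srgap2 lie below 0 in both comparisons of Htt-72Q, and every interval of Htt-25Q against control vector spans 0; the Htt-72Q points of Robo3 chose the family and are a description.

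Robo3 had 147, 115, 83 and 80 counts in control vector 1 to 4, and 112, 177, 190 and 154 in Htt-25Q 1 to 4. In Htt-72Q 1 to 4 it had 5, 10, 13 and 22 counts. In TMM-scaled CPM, the unit of all levels from here on, these were 6.47, 6.88, 4.19 and 6.43, then 4.85, 8.24, 7.11 and 8.77, then 0.328, 0.683, 1.04 and 1.064. Every Htt-72Q library thus lay below every other library, with no overlap, and the highest of them was still under the lowest control library, control vector 3. Its mean was 5.99 ± 1.22 under control vector, 7.24 ± 1.74 under Htt-25Q and 0.778 ± 0.346 under Htt-72Q (SD over 4 libraries). The log2 fold change was -2.92 ± 0.33 against control vector and -3.20 ± 0.33 against Htt-25Q, a 7.58-fold and a 9.17-fold lower level. Among the 14707 genes, ordered from the most negative change, Robo3 was number 23 and number 16. Robo4, the endothelial receptor gene close to Robo3 on chromosome 9, had 4 counts in all 12 libraries together.

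Robo2, the more abundant Slit receptor, stood at 332, 199.7, 199.9 and 237 CPM in control vector 1 to 4 and at 251, 215, 263 and 263 in Htt-25Q 1 to 4. In Htt-72Q 1 to 4 it stood at 130.2, 108, 100.2 and 150.3. No Htt-72Q library reached the lowest library of the other groups. Robo2 fell from 242 ± 62.5 to 122 ± 22.6 CPM (SD, n = 4 each), with a log2 fold change of -0.99 ± 0.17 against control vector (adjusted p = 0.000943) and -1.02 ± 0.17 against Htt-25Q (adjusted p = 0.000742). Ranges that did not overlap and lay lower in Htt-72Q were found for 13.6% of all tested genes against control vector and 15.1% against Htt-25Q, and ranges that lay higher for 10.1% and 11.6%. The call of Robo2 held in every alternative tried, and with any 1 library left out its adjusted p was at most 0.00502. Leaving out control vector 1, its highest library, brought the change against control vector to -0.80 (adjusted p = 0.00129).

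Robo1, the third receptor, read 63.2, 41.6, 36.4 and 39.4 CPM in control vector 1 to 4, 48.5, 37.5, 49.8 and 47.9 in Htt-25Q 1 to 4, and 41.8, 36.3, 30.2 and 48.7 in Htt-72Q 1 to 4. The groups overlap throughout. Its log2 fold change was -0.20 ± 0.19 against control vector (95% interval -0.63 to 0.23, adjusted p = 0.478) and -0.23 ± 0.19 against Htt-25Q (-0.65 to 0.20, adjusted p = 0.435). Neither interval reaches down to the -0.99 estimated for Robo2, and both leave room for a smaller fall. Without control vector 1 the estimate against control vector was 0.004.

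The balance of both Slit receptors can be read within each library, where scaling cancels out. The log2 ratio of Robo1 to Robo2 counts was -2.39, -2.26, -2.46 and -2.59 in control vector 1 to 4 and -2.37, -2.52, -2.40 and -2.46 in Htt-25Q 1 to 4. It was -1.64, -1.57, -1.73 and -1.63 in Htt-72Q 1 to 4. The Htt-72Q libraries lie apart from the 8 others, and within the groups the ratio moved little. The difference was 0.78 against control vector and 0.79 against Htt-25Q, in an exact permutation test over libraries, two-sided, with p = 0.0286 for each, the smallest that 4 against 4 allows. The permutation took the libraries as independent and ignored the preparation numbers. Ratios were taken after the data had been seen, for 7 pairs within families and 3 comparisons. Over those 21 tests the adjusted p was 0.0667, so no ratio passed correction. With so high a smallest p, a ratio can pass only if many of the 21 tests reach it too. Not passing is therefore no evidence that the ratios are unchanged.

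Among the ligands, Slit3 changed most. Its levels were 48.5, 31.7, 19.8 and 33.99 CPM in control vector 1 to 4, 17.2, 20.5, 45.9 and 31.6 in Htt-25Q 1 to 4, and 9.72, 6.08, 3.35 and 9.24 in Htt-72Q 1 to 4. Slit3 varied more than 2-fold within each group, yet the highest Htt-72Q library lay under the lowest of the others. It fell from 33.5 ± 11.8 to 7.10 ± 2.98 CPM, with a log2 fold change of -2.23 ± 0.37 against control vector (adjusted p = 0.000639) and -2.01 ± 0.37 against Htt-25Q (adjusted p = 0.00135). The call held in every alternative, with an adjusted p of at most 0.00737 when 1 library was left out. Leaving out control vector 1, its highest library, brought the change against control vector to -1.99 (adjusted p = 0.00178). By size of change Slit3 ranked 114 from the lowest of all tested genes against control vector.

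Slit2, the best-studied midline repellent, lay at 26.2, 15.9, 12.5 and 17.0 CPM in control vector 1 to 4, 13.9, 12.9, 16.6 and 14.5 in Htt-25Q 1 to 4, and 11.7, 10.7, 8.53 and 14.1 in Htt-72Q 1 to 4. Htt-72Q overlapped both other groups. Slit2 was called lower against control vector at -0.67 ± 0.22 (adjusted p = 0.0411) and not against Htt-25Q at -0.36 ± 0.22 (95% interval -0.85 to 0.14, adjusted p = 0.275). That call is fragile: without control vector 1 the change was -0.42 with an adjusted p of 0.133. It was also lost, at adjusted p 0.0513 to 0.101, without control vector 2 or 4, Htt-25Q 1 or 4, or Htt-72Q 1, 2 or 3. With limma voom, upper-quartile scaling, library totals or a fit of the 2 groups alone the adjusted p was 0.0625, 0.058, 0.0673 and 0.0813.

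Slit1, a ligand mostly confined to the nervous system, read 103, 83.4, 58.6 and 76.6 CPM in control vector 1 to 4, 58.3, 66.4, 96.1 and 83.9 in Htt-25Q 1 to 4, and 78.4, 82.2, 55.5 and 78.9 in Htt-72Q 1 to 4. The 3 groups share one range. The log2 fold change was -0.12 ± 0.19 against control vector (95% interval -0.56 to 0.31, adjusted p = 0.690) and -0.05 ± 0.19 against Htt-25Q (-0.48 to 0.39, adjusted p = 0.894). The sign of the latter turns with scaling to library totals, at 0.03, and with the block by preparation, at 0.14.

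Within libraries, Slit1 and Slit2 both stood higher relative to Slit3 in Htt-72Q. The log2 ratio of Slit1 to Slit3 was 1.30 ± 0.22 under control vector, 1.48 ± 0.32 under Htt-25Q and 3.48 ± 0.51 under Htt-72Q (SD, n = 4 each), where the Htt-72Q range overlapped neither of the others. That of Slit2 to Slit3 was -0.89 ± 0.155, -0.89 ± 0.51 and 0.76 ± 0.45. Slit2 thus had fewer counts than Slit3 in control vector and more in Htt-72Q, but counts also depend on exon length. Per kilobase the mean of Slit3 stayed above that of Slit2 in Htt-72Q (1.17 and 0.747 RPKM, with overlapping ranges). The Slit1 to Slit2 ratio was 0.53 higher in Htt-72Q than in control vector and 0.34 higher than in Htt-25Q, where the ranges overlapped (exact permutation p = 0.0857). The other 5 differences named here had an exact permutation p of 0.0286 before and 0.0667 after correction.

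**Figure D3:**
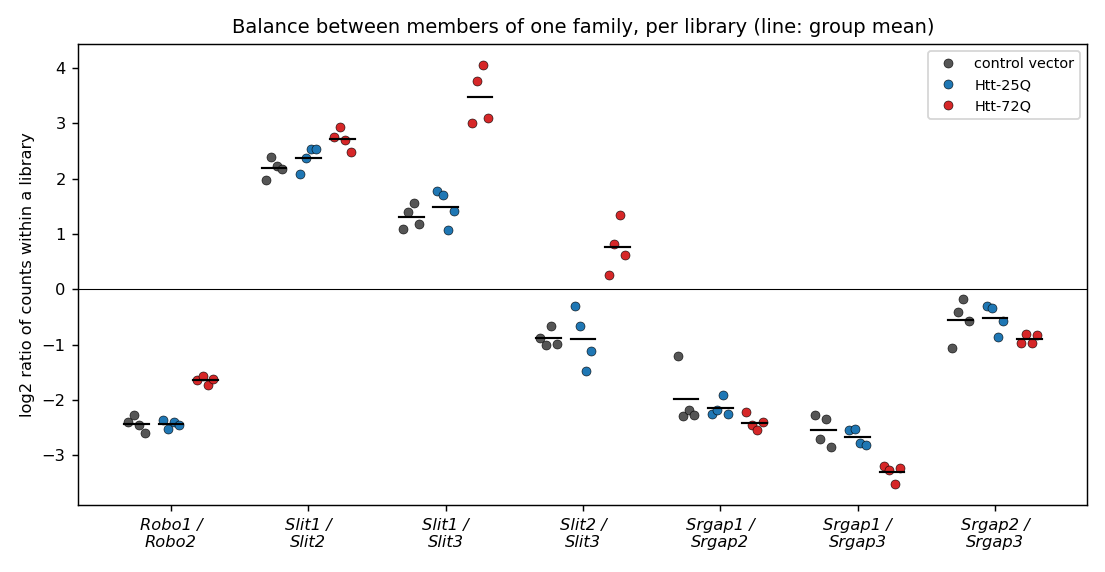
Log2 ratio of counts of 2 genes of a family within each library (points) with the group mean (line). The Robo1 to Robo2, Slit1 to Slit3, Slit2 to Slit3 and Srgap1 to Srgap3 ratios of the Htt-72Q libraries lie apart from those of the other 8, and all control vector and Htt-25Q ranges overlap.

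Among the srGAPs, control vector 1 stood well above the other control libraries. Srgap1 lay at 86.9, 24.1, 25.4 and 18.7 CPM in control vector 1 to 4, 25.5, 24.3, 28.1 and 23.8 in Htt-25Q 1 to 4, and 17.1, 14.7, 10.8 and 14.2 in Htt-72Q 1 to 4. All 4 Htt-72Q libraries were lower than the other 8, and control vector 1 was more than 3-fold above any other library. The log2 fold change against control vector was -1.45 ± 0.38 (adjusted p = 0.0130) and, leaving out control vector 1, -0.68 (adjusted p = 0.0104). The change against Htt-25Q, -0.84 ± 0.38, was not called (adjusted p = 0.132), although the ranges do not overlap. When control vector 1 was left out of the shared fit the same -0.84 was called (adjusted p = 0.00141), as it was in a fit of the 2 groups alone (adjusted p = 0.00304).

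Srgap2, a regulator of neuron migration and spine maturation, read 199.6, 118, 114 and 90.6 CPM in control vector 1 to 4, 121, 110.4, 106 and 114 in Htt-25Q 1 to 4, and 79.6, 80.7, 63.0 and 75.1 in Htt-72Q 1 to 4. The Htt-72Q range again lies under both others. Srgap2 was lower by -0.81 ± 0.19 against control vector (adjusted p = 0.00700) and by -0.60 ± 0.19 against Htt-25Q (adjusted p = 0.0372). Leaving out control vector 1, the former was -0.54 (adjusted p = 0.00706). The call against Htt-25Q was lost without any 1 of the 8 Htt-25Q and Htt-72Q libraries (adjusted p = 0.0564 to 0.0928), with library totals (0.0623) and with the library class described below as a covariate (0.111).

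Srgap3, the srGAP with the highest level, read 418, 158, 129 and 134 CPM in control vector 1 to 4, 148, 139.9, 193 and 168 in Htt-25Q 1 to 4, and 156, 141, 124 and 133 in Htt-72Q 1 to 4. Apart from control vector 1 the 3 groups overlap. The log2 fold change was -0.60 ± 0.30 against control vector (95% interval -1.28 to 0.08, adjusted p = 0.170), and -0.02 without control vector 1. It was -0.23 ± 0.30 against Htt-25Q (-0.91 to 0.45, adjusted p = 0.634). Relative to Srgap3 in the same library, Srgap1 was 0.76 lower than in control vector and 0.64 lower than in Htt-25Q on the log2 scale, with no overlap (exact permutation p = 0.0286 each, 0.0667 after correction). Srgap1 also shares 434 exonic bases with a gene of the opposite strand, ENSMUSG00000100143, which had 0 counts in every library, and strandedness is not given in the sources used here.

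Libraries with the same preparation number can be compared with each other. The share of all tested genes that were lower in every preparation was not counted, so nothing is read from the counts of preparations below. Robo3 chose the family, and its differences are a description. In the 4 preparations that hold a control and an Htt-72Q library, Robo2, Robo3, Slit2, Slit3, Srgap1, Srgap2 and Srgap3 were lower in Htt-72Q in 4 of 4. Robo3 differed by -4.30 to -2.02 on the log2 scale, Slit3 by -2.57 to -1.88, Robo2 by -1.35 to -0.65 and Srgap1 by -2.34 to -0.40. For Srgap3 the range was -1.42 to -0.01, with preparation 22, which holds control vector 1, at the far end. Robo1 and Slit1 were lower in 3 of 4. In the 3 preparations with an Htt-25Q and an Htt-72Q library, Robo3 differed by -3.89 to -2.74, Robo2 by -0.99 to -0.81, Slit3 by -2.31 to -0.82, Srgap1 by -0.99 to -0.57 and Srgap2 by -0.60 to -0.45. Robo1 (-0.21 to -0.03) and Slit2 (-0.27 to -0.23) were also lower in 3 of 3, by less, and Slit1 (-0.28 to 0.43) and Srgap3 (-0.54 to 0.07) in 1 of 3.

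**Figure D4:**
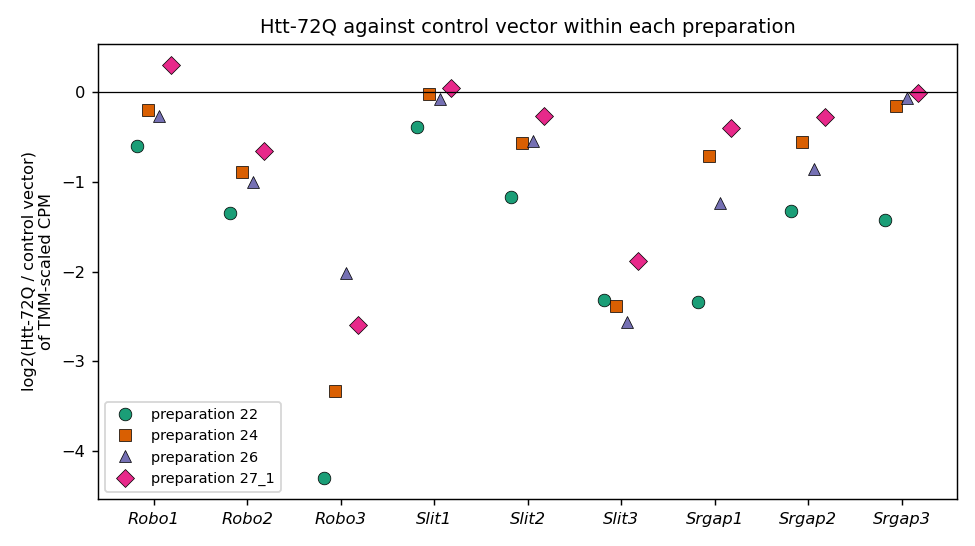
Log2 difference in TMM-scaled CPM between the Htt-72Q and the control vector library of each of 4 preparations, for the 9 genes. Robo2, Robo3, Slit2, Slit3 and the srGAPs lie below 0 in every preparation, with Srgap3 at -0.01 in preparation 27_1. Robo1 and Slit1 lie on both sides of 0, and preparation 22 gives the lowest point of the srGAPs.

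With the short repeat nothing in the family was called. Of 9 genes 0 passed in Htt-25Q against control vector, where 0% of all tested genes passed; by unadjusted p under 0.05, edgeR gave 129 genes and DESeq2 154 over the whole table, with 0 called by either. Ranges that did not overlap were found for 0.993% of genes, 0.32% lower and 0.673% higher. Robo3 was at 0.27 ± 0.27 (95% interval -0.35 to 0.89), Robo2 at 0.03 ± 0.17 (-0.35 to 0.42) and Robo1 at 0.02 ± 0.19 (-0.40 to 0.45). For the ligands the estimates were -0.08 ± 0.19 for Slit1, -0.31 ± 0.22 for Slit2 and -0.22 ± 0.35 for Slit3. The srGAPs lay at -0.61 ± 0.37 for Srgap1 (-1.45 to 0.23), -0.22 ± 0.19 for Srgap2 and -0.37 ± 0.30 for Srgap3, and without control vector 1 at 0.16, 0.06 and 0.21. The intervals of Slit3 and Srgap1 are wide and reach down to -1.01 and -1.45.

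The rest of the pathway was taken from 4 lists, whose counts stand beside 13.7% of all tested genes called lower and 9.44% higher against control vector, and 13.4% and 9.07% against Htt-25Q. Of 17 other ligands, co-receptors and heparan sulfate enzymes, 16 were tested, and 6 fell and 1 rose in each comparison of Htt-72Q, with a median change of -0.29 against control vector and -0.30 against Htt-25Q. Nell2, which encodes the ligand of Robo3, fell from 1239 ± 308 to 508 ± 79.2 CPM (-1.29 ± 0.20, adjusted p = 0.000348), and by 1.16 ± 0.20 against Htt-25Q. Flrt2 and Flrt3, adhesion proteins of which Flrt3 acts as a Robo1 co-receptor, fell by 1.67 ± 0.18 and 1.12 ± 0.18 against control vector and by 1.77 ± 0.18 and 1.12 ± 0.18 against Htt-25Q on the log2 scale. Of 3 listed enzymes that build heparan sulfate, the sugar that steadies Slit on Robo, Hs6st1 fell by 1.10 ± 0.16 against control vector and 1.07 ± 0.16 against Htt-25Q, and Ext1 by 0.65 ± 0.14 and 0.85 ± 0.14. The third, Hs2st1, named after its value was seen, was at -0.21 ± 0.10 against control vector (adjusted p = 0.156) and at -0.34 ± 0.10 against Htt-25Q (adjusted p = 0.0265), where blocking by preparation ended the call (0.0837), as did leaving out Htt-25Q 1 or 4 or Htt-72Q 1, 2 or 3 (0.051 to 0.0842). The 1 that rose, named after its value was seen, was Sdc2, a heparan sulfate carrier, at 0.83 ± 0.17 against control vector and 0.61 ± 0.17 against Htt-25Q; the latter was lost without Htt-25Q 1 (0.53, adjusted p = 0.0564).

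Of 25 intracellular effectors, 4 fell and 1 rose against control vector and 5 fell and 1 rose against Htt-25Q, with medians of -0.10 and -0.07, shares near those over all genes. Vav2, an exchange factor for Rac, fell by 1.04 ± 0.12 and 0.88 ± 0.12, and Ablim1, an actin-binding protein, by 0.66 ± 0.11 and 0.62 ± 0.11. Wasf1, a subunit of the WAVE actin regulator, fell by 1.82 ± 0.32 against control vector, by 1.24 without control vector 1, and by 1.41 ± 0.32 against Htt-25Q. Arhgap4, a relative of the srGAPs, was at -1.32 ± 0.33 against Htt-25Q (adjusted p = 0.00951) and at -1.03 ± 0.33 against control vector (adjusted p = 0.0344), where the call was lost without control vector 1 or 2 or Htt-72Q 1, 2 or 4 (adjusted p = 0.0511 to 0.115). Nck1, an adaptor between Robo and Pak, was the effector that rose, by 0.52 ± 0.15 against control vector, which did not hold without control vector 4 or Htt-72Q 1 or 2 (adjusted p = 0.0587 to 0.0702). The fifth to fall against Htt-25Q, named after its value was seen, was Cap2, at -0.90 ± 0.28 (adjusted p = 0.0317), which was lost without Htt-25Q 3 or 4 or Htt-72Q 1, 2 or 3 (adjusted p = 0.0502 to 0.11). Against control vector Cap2 was at -0.76 ± 0.28 and not called (adjusted p = 0.0631), but with the block by preparation it was called at -0.72 (0.000851), which makes 5 effectors that fell. It was also called there with the block by title number (0.00265), with DESeq2 (0.033) and without control vector 1 (0.028).

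Of 12 genes for Robo trafficking, cleavage and turnover, 11 were tested and 2 fell against control vector and 1 against Htt-25Q, shares near those over all genes, with medians of 0.03 and 0.07. Usp33, which removes ubiquitin from Robo1, was at -0.35 ± 0.11 in both (adjusted p = 0.0296 and 0.0319), and Nedd4l, a ubiquitin ligase, at -0.46 ± 0.14 against control vector (adjusted p = 0.0311). Those calls are near the threshold. That of Usp33 was lost without control vector 2, 3 or 4 or Htt-72Q 2 or 3 against control vector (adjusted p = 0.0505 to 0.0777) and without Htt-25Q 2, 3 or 4 or Htt-72Q 1, 2 or 3 against Htt-25Q (0.0518 to 0.101), and there also with the block by preparation (0.0581). That of Nedd4l was lost without control vector 1 or 2 or Htt-72Q 2 or 3 (0.0533 to 0.0804).

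Of 9 transcription factors listed as regulators of Robo or Slit genes, Isl2, Lhx2, Zic2 and Pax6 were tested. Pax6 was not called in either comparison of Htt-72Q (0.44 ± 0.25 against control vector, adjusted p = 0.222). Lhx9 did not pass the filter on low counts, with means of 0.045 CPM under control vector and 0.238 under Htt-72Q. Lhx2, which with its close relative Lhx9 is needed for Robo3 in spinal commissural neurons, fell from 109.9 ± 10.2 CPM in control vector and 107 ± 5.26 in Htt-25Q to 56.7 ± 5.09 in Htt-72Q (-0.95 ± 0.11 and -0.92 ± 0.11, adjusted p = 2.74e-05 and 3.94e-05). Isl2, a LIM-homeodomain factor, had 4, 4, 5 and 6 counts in control vector 1 to 4, 4, 4, 2 and 6 in Htt-25Q 1 to 4, and 73, 74, 70 and 46 in Htt-72Q 1 to 4. It passed the filter on low counts only through Htt-72Q, where it is high, so it is given by its counts and its call supports nothing. Zic2 rose by 0.94 ± 0.26 and 0.89 ± 0.26. Its calls were lost without control vector 2 or 4 or Htt-72Q 2 against control vector (adjusted p = 0.0507 to 0.0623) and without Htt-25Q 3 or 4 or Htt-72Q 2 against Htt-25Q (0.0612 to 0.0814). Whether these factors act on the Robo or Slit genes in these neurons was not tested. In Htt-25Q against control vector 0 genes of the 4 lists were called.

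**Figure D5:**
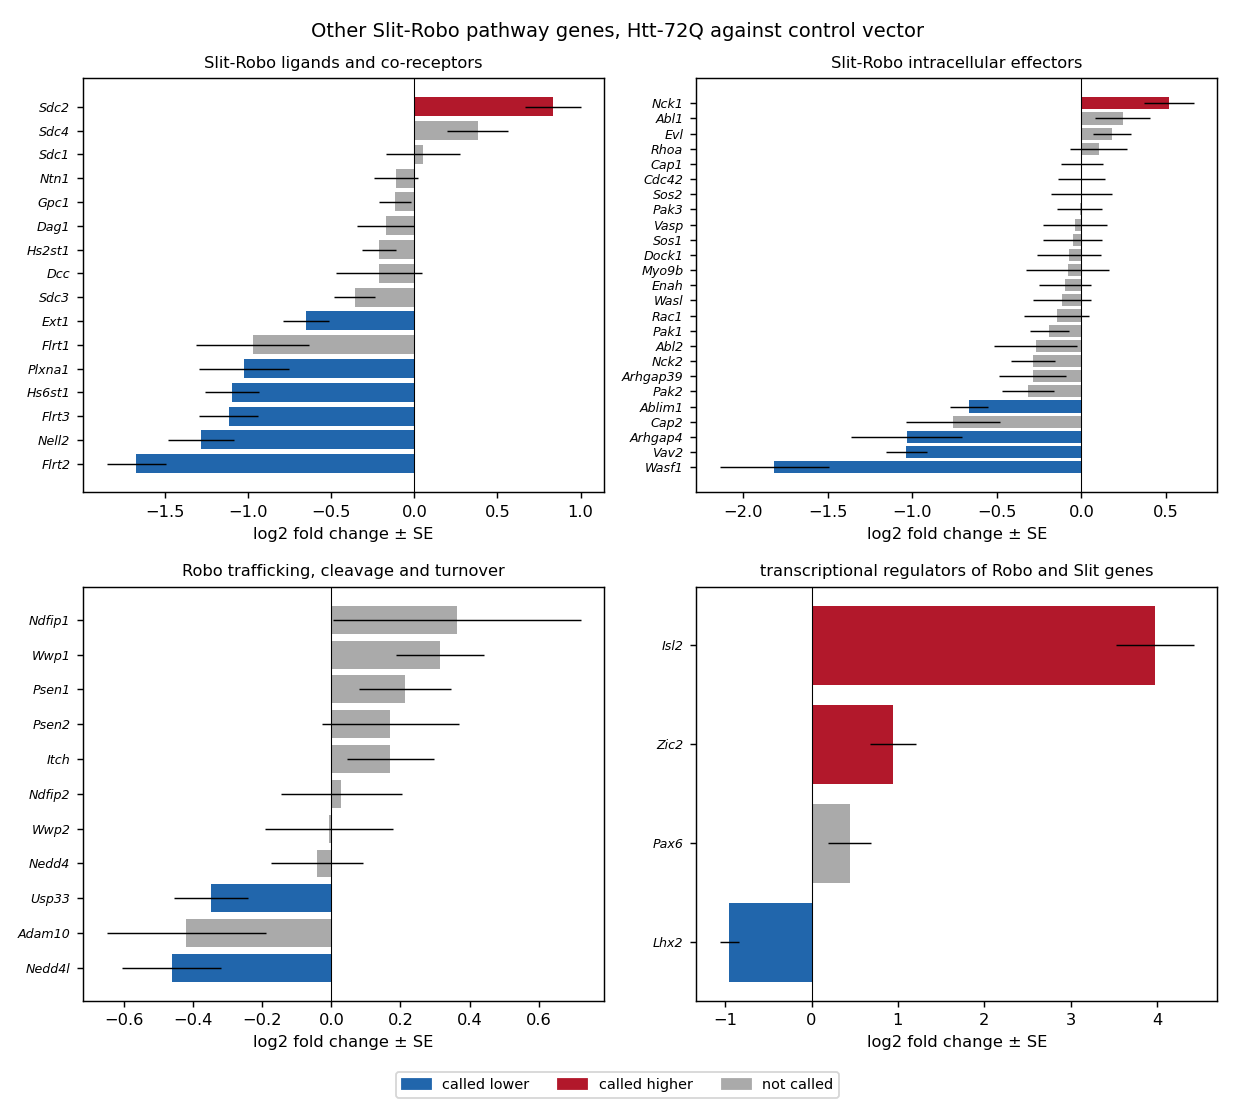
Log2 fold change with its SE of the tested genes of 4 pathway lists in Htt-72Q against control vector, coloured by whether the gene was called; the axes differ between panels. Flrt2, Nell2 and Wasf1 mark the low end of their lists, Isl2, tested only because it is high in Htt-72Q, the high end, and most of the effector and trafficking genes lie near 0.

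Some features of the libraries moved with these results. Of 10 cortical neuron markers 8 fell in each comparison of Htt-72Q and none rose, where 13.7% and 13.4% of all tested genes were called lower, and their summed level was 5350 to 5898 CPM under control vector, 5028 to 5438 under Htt-25Q and 3681 to 3862 under Htt-72Q, with all 10 detected. Of 8 inhibitory neuron markers 4 fell in each, with sums of 218 to 285, 181 to 307 and 109 to 168 CPM. Of 6 Cajal-Retzius markers 2 were tested and Reln fell, with sums of 118 to 196, 113 to 216 and 76.0 to 96.0 CPM and Lhx1 at 0 in control vector and Htt-25Q. That sum is mostly Reln and Calb2, with means of 139 and 19.9 CPM under control vector. Trp73, Lhx1, Lhx5 and Ebf2 had group means of at most 0.622 CPM, so the sum follows Reln. Of 8 astrocyte markers none was called, and their sums were 2321 to 2988, 2320 to 2595 and 2404 to 2534 CPM. None of 8 oligodendrocyte lineage markers was called against control vector and Mog fell against Htt-25Q, with sums of 539 to 713, 504 to 627 and 519 to 634 CPM. The part of these shifts in the changes of Robo2, Robo3, Slit3 and the srGAPs was not tested.

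Markers of other cell types were low. Microglia markers summed to 3.61 to 13.02 CPM under control vector, 7.28 to 12.1 under Htt-25Q and 7.09 to 25.2 under Htt-72Q, with Tmem119 at 0 outside Htt-72Q, and endothelial markers to 1.77 to 3.23, 1.68 to 3.26 and 1.37 to 4.54 CPM. Fibroblast and mural markers summed to 6.75 to 22.4, 9.74 to 13.8 and 7.41 to 15.5 CPM, and of 3 tested Rgs5 fell. Mitochondrial ribosomal RNA took 6.71 to 14.2% of counts under control vector, 7.77 to 13.2% under Htt-25Q and 10.8 to 14.8% under Htt-72Q. Libraries also split into classes at the largest gap in Ctnnd1 level. The class with less Ctnnd1 held 2 control vector, 1 Htt-25Q and 3 Htt-72Q libraries, and with the class as a covariate Robo2, Slit2, Slit3, Srgap1 and Srgap2 were still called against control vector.

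The genes whose pattern over the 12 libraries was closest to that of Robo3 were Ccbe1, Kctd16, Cnksr2, Rgs6 and Pex5l, out of 12351 genes with a mean of at least 1 CPM. Closeness was the root mean square difference of log2(CPM + 1) after centring each gene, and it was 0.224, 0.225, 0.226, 0.235 and 0.237. Cnksr2, a synaptic scaffold, was at 316 CPM under control vector, 341 under Htt-25Q and 87.8 under Htt-72Q, and Rgs6, a regulator of G protein signalling, at 61.5, 68.3 and 16.2. Ccbe1 was at 17.0, 18.6 and 3.17 CPM. The list depends on the pseudocount: with 0.1 in place of 1 only Ccbe1 of these 5 was again among the closest 5, and with 5 none was.

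The positions of the genes in the deposited tables (GRCm38) are as follows. Robo1 (ENSMUSG00000022883) lies at chr16:72663149-73046095 on the plus strand and Robo2 (ENSMUSG00000052516) at chr16:73892306-74411825 on the minus strand. Robo3 (ENSMUSG00000032128) lies at chr9:37415669-37433163 on the minus strand. Slit1 (ENSMUSG00000025020) is at chr19:41600257-41743665 (minus), Slit2 (ENSMUSG00000031558) at chr5:47983155-48306282 (plus) and Slit3 (ENSMUSG00000056427) at chr11:35121224-35708507 (plus). Srgap1 (ENSMUSG00000020121) is at chr10:121780991-122047315, Srgap2 (ENSMUSG00000026425) at chr1:131285251-131527352 and Srgap3 (ENSMUSG00000030257) at chr6:112717971-112947266, all on the minus strand.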

How the data were processed

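Per the submitters' processing notes, STAR 2.0.4b, Subread, featureCounts 1.45 and GRCm38 were used. How strand and multi-mapped reads were handled, and which annotation release served, is not given in the sources used here. For every library the authors deposited counts of reads per gene after merging 2 lanes, and 2 columns that follow from them: CPM and RPKM (CPM per kilobase of exon), per the file headers. The counts alone were used. Replicates were 4 libraries per group, placed by title; no pair were duplicates.

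Differences were tested on counts by quasi-likelihood in edgeR 4.0.16 (R 4.3.3): TMM scaling, filterByExpr with a minimum count of 10, 1 fit of 12 libraries on 3 groups with 9 residual degrees of freedom, two-sided, Benjamini-Hochberg adjusted over 14707 genes. All adjusted p-values are from this test unless another is named. The script was first tested on simulated counts. Ratios were tested by exact permutation of libraries, without regard to preparation. Positions come from the deposited tables, sequences from RefSeq (GRCm38.p6) and GENCODE M21.

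Deviations from the group means were correlated across genes between libraries sharing a preparation number. Correlations were above 0.1 in 10 of 10 such pairs (median 0.282), against 6 of 38 other pairs. Libraries sharing a number were treated as paired in an alternative with a block by preparation. Preparation 27 holds Htt-25Q 4 alone, so in that alternative this library adds nothing to the comparisons with Htt-25Q. Other alternatives were DESeq2 1.42.0, limma voom (limma 3.58.1), other scalings and filters, fits of 2 groups, the library class and leaving out each library. The family, the pathway and marker lists and the rule for named genes (from each list the 4 called genes with the smallest p in each comparison, and the 5 genes closest to Robo3) were chosen with earlier results of these data known. The ratios, the promoter motifs and the miR-218 search were chosen after the data were seen.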

Additional observations from a re-analysis of the deposited data

Results flagged for a closer look

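For each of the 9 genes in each of the 3 groups, the 4 libraries were searched for one whose gap to its nearest neighbour took up most of the range of the group (Dixon's criterion). Of 27 sets of 4, 5 had such a library (18.5%), where chance gives about 5%. Control vector 1 stood high for Srgap1 at 86.9 CPM, with the next control library at 25.4, and for Srgap3 at 418 CPM, with the next at 158. Control vector 3 stood low for Robo3 at 4.19 CPM, with the next control library at 6.43. Htt-25Q 2 was low for Robo1 at 37.5 CPM, with the next at 47.9, and Htt-72Q 3 was low for Slit1 at 55.5 CPM, with the next at 78.4. The 27 sets share libraries and are not independent.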

How the results depend on the processing

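The 25 tested changes of the family (Robo3 in Htt-72Q left aside) were recomputed under 11 alternatives and with each library left out, and 527 values kept their direction and side of the threshold, 22 lost and 2 gained a call and 24 changed sign, none of which was called. The changes of sign were in Slit1 against Htt-25Q (0.002 with upper-quartile scaling, 0.029 with library totals and 0.135 with the replicate block by preparation) and, in Htt-25Q against control vector with that block, in Robo1 (-0.095) and Robo2 (-0.062). With 1 library left out, Robo1 and Slit1 against control vector ran from -0.316 to 0.004 and -0.268 to 0.016 in Htt-72Q, and Slit1 against Htt-25Q from -0.157 to 0.083. In Htt-25Q against control vector Robo1 ran from -0.087 to 0.231, Robo2 from -0.067 to 0.225, Slit1 from -0.219 to 0.065, Slit3 from -0.541 to 0.017, Srgap1 from -0.84 to 0.16, Srgap2 from -0.357 to 0.063 and Srgap3 from -0.567 to 0.21; the log2 ratios there ran from -0.066 to 0.043 for Robo1/Robo2, -0.198 to 0.189 for Slit2/Slit3, -0.267 to 0.099 for Srgap1/Srgap2 and -0.132 to 0.164 for Srgap2/Srgap3. The replicate block by title number or by preparation changed no call of the family; over all genes the block by preparation called 4490 against control vector and 3120 against Htt-25Q, where the fit without it called 3411 and 3308. Members called with 1 library left out numbered 4 to 5 of 8 against control vector, 2 to 4 against Htt-25Q and 0 of 9 in Htt-25Q against control vector. Over all genes the same fits called 2671 to 3265, 2293 to 3902 and 0.

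Counts called in the trafficking list were 2 against control vector and 1 against Htt-25Q. Against control vector they were 1 with upper-quartile scaling or library totals, where Usp33 and Nedd4l were both lost and Wwp1 was called higher (0.375 and 0.395), and 0 in a fit of 2 groups; against Htt-25Q they were 2 with DESeq2 or a fit of 2 groups and 0 with upper-quartile scaling, library totals, no filter or the replicate block by preparation. With 1 library left out they ran from 0 to 3 and from 0 to 4, and the effectors from 3 to 6 against control vector. The regulators ran from 2 to 5 against Htt-25Q, Isl2 among those called, where the fit of all 12 libraries tested 4. A count of 5 thus takes in a gene tested only with a library left out, and nothing is read from it. The cause was not tested. Robo3 rests on 5 to 22 counts per library in Htt-72Q, which limits the precision of its change.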
